A study of Homo sapiens with 8 samples.

Results

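SBO03 is 1 of 12 pooled samples of HMLE, a line of human mammary epithelium that was immortalised in culture, and is known here by the short barcoded oligonucleotide (SBO) that marked its cells. Its members are 876 cells, 492 in library 1 and 384 in library 2, of 6155 cells with 1 barcode in those libraries and 9751 in the series. A cell was a member when it had at least 1000 genes and at most 15% mitochondrial counts, passed as a single for SBO03, and had more SBO03 than any other barcode. The study followed epithelial-to-mesenchymal transition (EMT) induced by TGF-β, with and without pyridostatin, a ligand of G-quadruplexes, the folded structures of guanine-rich DNA. The labels do not say which of these treatments, or which time, any barcode stands for, so no treatment was compared. The comparison sets SBO03 beside SBO02 (446 cells), SBO04 (293 cells) and SBO06 (1062 cells), which share its pool, line and both libraries. Each barcode is taken as 1 culture and the 2 libraries are 2 channels loaded from the same pool, so there is no replicate culture and no test. Values are UMIs (unique molecular identifiers, counts of captured transcripts) summed over the cells of a barcode in a library and given as CPM, the UMIs of a gene divided by all UMIs of that sum and scaled to 1000000, with library 1 before library 2.

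Fibronectin, made from FN1, is a large glycoprotein that cells secrete and assemble into fibres of the extracellular matrix, where integrin receptors bind it. TGF-β binds a pair of kinase receptors that activate SMAD transcription factors, and FN1 and TGFBI are among the genes it is known to induce. In mammary epithelium, cells that switch on such matrix genes while keeping keratins and cell junctions are often described as being in partial EMT.

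The barcodes carry the comparison, because every cell below is assigned by them. They are shown 5′ to 3′, with SBO03 in capitals throughout and, in the other lines, capitals where a base differs from SBO03 at the same position.
SBO03: GTGCAAGAGTTGGCG
SBO02: AGCGaaCCgCCgCTg
SBO04: gAAGaagCgttATTC
SBO06: CACTCCTTgACAgGT
Each has 15 bases. SBO04 differs from SBO03 at 8 of them, SBO02 at 10 and SBO06 at 13, and no pair of the 12 barcodes differs at fewer than 8.

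SBO03 was the most cleanly marked of the 4 cultures. In the median SBO03 cell, 92.8 and 91.3% of the barcode UMIs of the pool were SBO03. The same share was 65.8 and 69.4% in SBO02, 73.4 and 76.5% in SBO04, and 86.1 and 85.6% in SBO06. The requirement that the assigned barcode be the highest removed 3 SBO03 cells, 118 SBO02 cells, 59 SBO04 cells and 12 SBO06 cells. A share of other barcodes this large moves with SBO02 and SBO04, and its part in their values was not tested. The SBO03 sums held 11450250 and 10599015 UMIs, against 3516883 to 14687035 in the other 3 cultures. The median SBO03 cell had 23169.5 and 27447.5 UMIs with 1.29 and 1.27% from mitochondrial genes. Among kept cells, 116 cell barcodes occurred in both libraries, and they were counted as different cells.

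Epithelial markers were present in SBO03. EPCAM, an epithelial surface adhesion protein, was at 326 and 319 CPM in SBO03 and between 314 and 325 CPM in the other 3. KRT14, a basal keratin, was found in 93.8 and 90.4% of SBO03 cells after each cell was thinned to 10000 UMIs. PTPRC, the pan-leukocyte surface protein, had 0 CPM in both SBO03 sums, which take in all 876 cells. After thinning, 0 of 421 and 0 of 324 cells had a UMI, with upper 95% limits of 0.872 and 1.13%, which bound cells with a UMI and not cells that express the gene. Of 8 leukocyte markers 1 reached a mean of 10 CPM, of 7 endothelial markers none, and of 8 fibroblast markers 2.

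FN1 lies at chr2:215360865-215436068 in GRCh38.p14. SBO03 held 2871.8 CPM of FN1 in library 1 (95% Poisson interval 2841 to 2903) and 3436.3 CPM in library 2 (3401 to 3472). These intervals cover counting error only. SBO02 held 3011.8 and 3016.5 CPM, SBO04 2313.4 and 2337.9 CPM, and SBO06 1564.6 and 1701.5 CPM. SBO03 was thus above SBO04 and SBO06 in both libraries, while SBO02 lay between its own 2 values. As the mean over libraries of the log2 ratio of CPM + 1, which is the log2 difference used throughout, FN1 in SBO03 differed by 0.06 from SBO02, 0.43 from SBO04 and 0.94 from SBO06. The mean over all 3 was 0.48, which became 0.69 without SBO02 and 0.25 without SBO06.

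**Figure D1:**
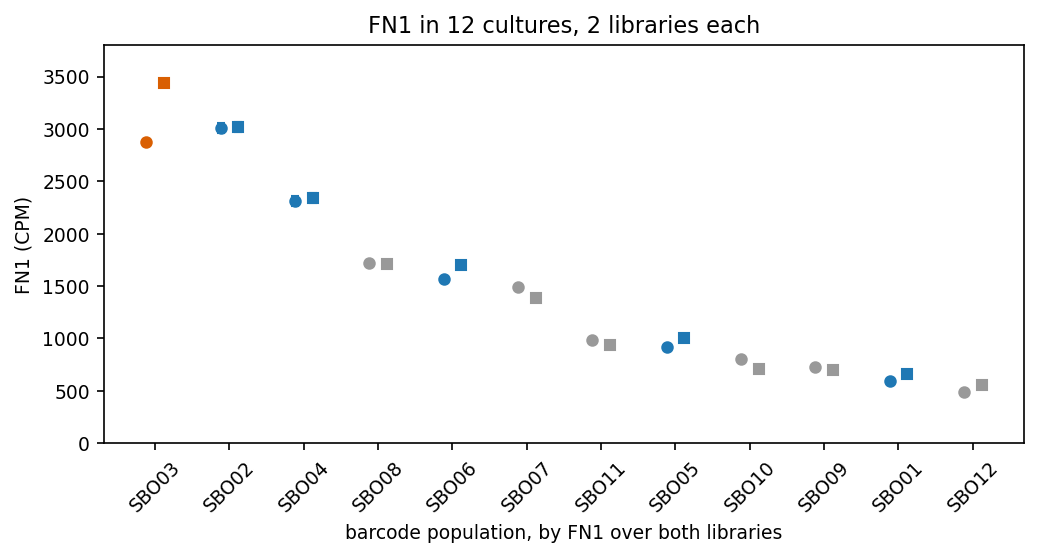
FN1 in CPM (y axis, from 0) for the 12 barcode populations (x axis, ordered by FN1 over both libraries), with circles for the first and squares for the second library of each pool and bars for 95% Poisson intervals. SBO03 is orange, its pool blue and the other pool grey; SBO03 at 2871.8 and 3436.3 CPM and SBO02 at 3011.8 and 3016.5 CPM are above the other 10.

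Across the 12 populations SBO03, SBO02 and SBO04 had the highest FN1. SBO08 followed with 1724 and 1708 CPM, and SBO06 and SBO07 (1492 and 1386 CPM) were next. The other 6 ran from 1006 CPM in SBO05 down to 486 CPM in SBO12, taking each library by itself. Neighbours whose library values overlapped, and whose order is therefore not settled, were SBO03 with SBO02, SBO11 with SBO05, and SBO10 with SBO09. SBO08 and SBO06 were separated by less than SBO06 varied between its own libraries. SBO05 held 917 and 1006 CPM of FN1. It had the largest share of matrix-rich cells in the pool (below), by genes listed as leading in SBO05.

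The difference was spread over the cells of the culture. After thinning to 10000 UMIs, which left 421 and 324 SBO03 cells and dropped 71 and 60 shallower ones, the median SBO03 cell held 21 and 23 FN1 UMIs. The medians were 19 and 21 in SBO02, 15.5 and 17 in SBO04, and 10 and 11 in SBO06. At least 1 FN1 UMI was present in 421 of 421 and 321 of 324 thinned SBO03 cells, 100 and 99.1%, and in 99.6 and 99.2% before thinning. In SBO01, the culture of the pool with the least FN1, it was present in 94.0 and 95.3% of thinned cells, so presence separates these cultures little. At least 5 FN1 UMIs were present in 95.5 and 93.2% of SBO03 cells against 77.7 and 81.0% of SBO06 cells. The 5 SBO03 cells richest in FN1 held 5.71% of the FN1 UMIs in library 1.

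**Figure D2:**
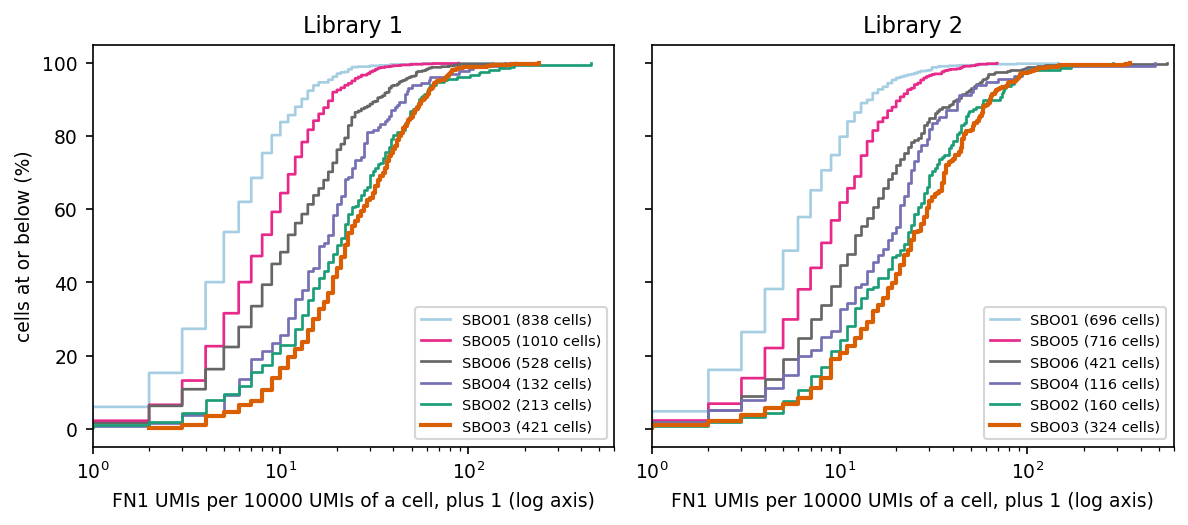
Cumulative share of cells (y axis, %) by FN1 UMIs among 10000 UMIs of a cell, plus 1 (x axis, log scale), for the 6 cultures of the pool in library 1 (left) and library 2 (right). The SBO03 line crosses 50% furthest to the right, close to SBO02, with medians of 21 and 23 UMIs against 10 and 11 in SBO06.

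The FN1 promoter is shown because the study concerns G-quadruplexes. These are the 250 bases before the RefSeq start of FN1 on the minus strand, chr2:215436069-215436318 of GRCh38.p14, with capitals marking a stretch that matches 4 runs of 3 or more G with 1 to 7 bases between them.
FN1: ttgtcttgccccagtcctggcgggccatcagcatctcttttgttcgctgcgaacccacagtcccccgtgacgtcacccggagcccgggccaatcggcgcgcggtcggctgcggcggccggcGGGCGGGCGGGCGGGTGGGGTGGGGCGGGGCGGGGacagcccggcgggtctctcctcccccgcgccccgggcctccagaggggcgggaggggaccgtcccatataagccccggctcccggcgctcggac
On either strand, this pattern was present in 24.1% of 27305 RefSeq promoter windows of 300 bases and in 33.5% of those of the genes compared here. Of the genes higher in SBO03 than in SBO06 (below), 17 of 44 with a window held it, 38.6%. A match describes letters and is not a measured structure.

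The genes whose level over the 12 populations was most like that of FN1 were TRIM21, HLA-E, PARP14, LAP3 and CTSZ, with Pearson correlations of 0.983, 0.979, 0.971, 0.971 and 0.968 on log2(CPM + 1). This is a description over 12 points that share 2 pools and 4 libraries. Without SBO05 the 5 were TRIM21, SLFN5, HLA-E, IFIH1 and HLA-F. Neither set holds a matrix gene, and none of the first 5 met the fold rule in SBO03.

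As a whole SBO03 was close to its 3 comparators. A gene was compared when its mean over the 8 sums was at least 10 CPM, which 8623 genes met, and called when SBO03 was at least 1.5 times above, or below, the other on CPM + 1 in both libraries. Against all 3 cultures at the same time, 1 gene was called higher, 0.0116% of those compared, and 1 lower, also 0.0116%. By the same rule SBO02 had 4 genes higher than the other 3 (0.0464%) and 0 lower (0.0%), SBO04 2 higher (0.0232%) and 0 lower (0.0%), and SBO06 2 higher (0.0232%) and 8 lower (0.0928%). With 1 culture a side these are counts past a fold, with no test. Taken singly, SBO03 was higher than SBO02 in 5 genes (0.058%) and lower in 22 (0.255%), higher than SBO04 in 8 (0.0928%) and lower in 7 (0.0812%), and higher than SBO06 in 59 (0.684%) and lower in 16 (0.186%). Counts for single cultures were added after the values had been seen. For scale, SBO03 was higher than SBO01 in 651 genes (7.55%) and lower in 198 (2.3%), and higher than SBO05 in 1136 (13.2%) and lower in 497 (5.76%). Among the comparators, SBO02 was higher than SBO04 in 32 genes (0.371%) and lower in 13 (0.151%), and higher than SBO06 in 52 (0.603%) and lower in 5 (0.058%). SBO04 was higher than SBO06 in 47 genes (0.545%) and lower in 14 (0.162%). Between the 2 libraries of SBO03 itself, 0.220% of genes differed by 1.5 times or more, against 1.96% in SBO04, the smallest culture.

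DHRS2 was the gene higher in SBO03 than in all 3. It encodes a short-chain dehydrogenase/reductase and lies at chr14:23630115-23645639. SBO03 held 61.7 and 82.4 CPM, SBO02 39.96 and 36.9 CPM, SBO04 28.4 and 31.4 CPM, and SBO06 26.6 and 18.1 CPM. Both SBO03 values were above all 6 of the others, with log2 differences of 0.88 from SBO02, 1.23 from SBO04 and 1.65 from SBO06. The smallest within a library was 0.61. DHRS2 was found in 28.0 and 27.5% of thinned SBO03 cells, in 16.0 and 14.4% of SBO02, 18.2 and 25% of SBO04, and 12.5 and 8.31% of SBO06. When the 2% of cells richest in DHRS2 were left out of each sum, SBO03 kept 39.3 and 45.004 CPM against 9.94 to 21.9 CPM elsewhere. The call was lost, with the direction kept, under a looser barcode threshold, an assignment by the top barcode, a pseudocount of 5 CPM, or a fold of 2.

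CXCL1, a chemokine that attracts neutrophils, was the gene lower in SBO03 than in all 3. It lies at chr4:73869393-73871308. SBO03 held 17.1 and 11.2 CPM, SBO02 50.9 and 31.8 CPM, SBO04 49.2 and 20.6 CPM, and SBO06 41.2 and 40.1 CPM. CXCL1 was found in 9.74 and 4.32% of thinned SBO03 cells and 14.1 and 13.1% of SBO02 cells. In SBO04 it was found in 10.6 and 7.76%, and in SBO06 in 10.8 and 9.98%. The SBO03 share in library 1 was thus close to those of SBO04 and SBO06. The sums rested on few cells. The 5 cells with most CXCL1 held 40.3 and 52.1% of its UMIs in SBO03 and 86.7 and 84.6% in SBO04. Without the richest 2% of cells SBO03 kept 7.86 and 4.06 CPM and SBO04 7.39 and 6.59 CPM, no longer past the fold in library 1, while SBO02 kept 18.8 and 14.5 CPM and SBO06 17.0 and 10.3 CPM. Left without those cells, SBO03 was past the fold below SBO02 and SBO06 in both libraries, while its library 1 value was slightly above that of SBO04. The call was also lost at a barcode quantile of 0.95 and at a fold of 2.

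**Figure D3:**
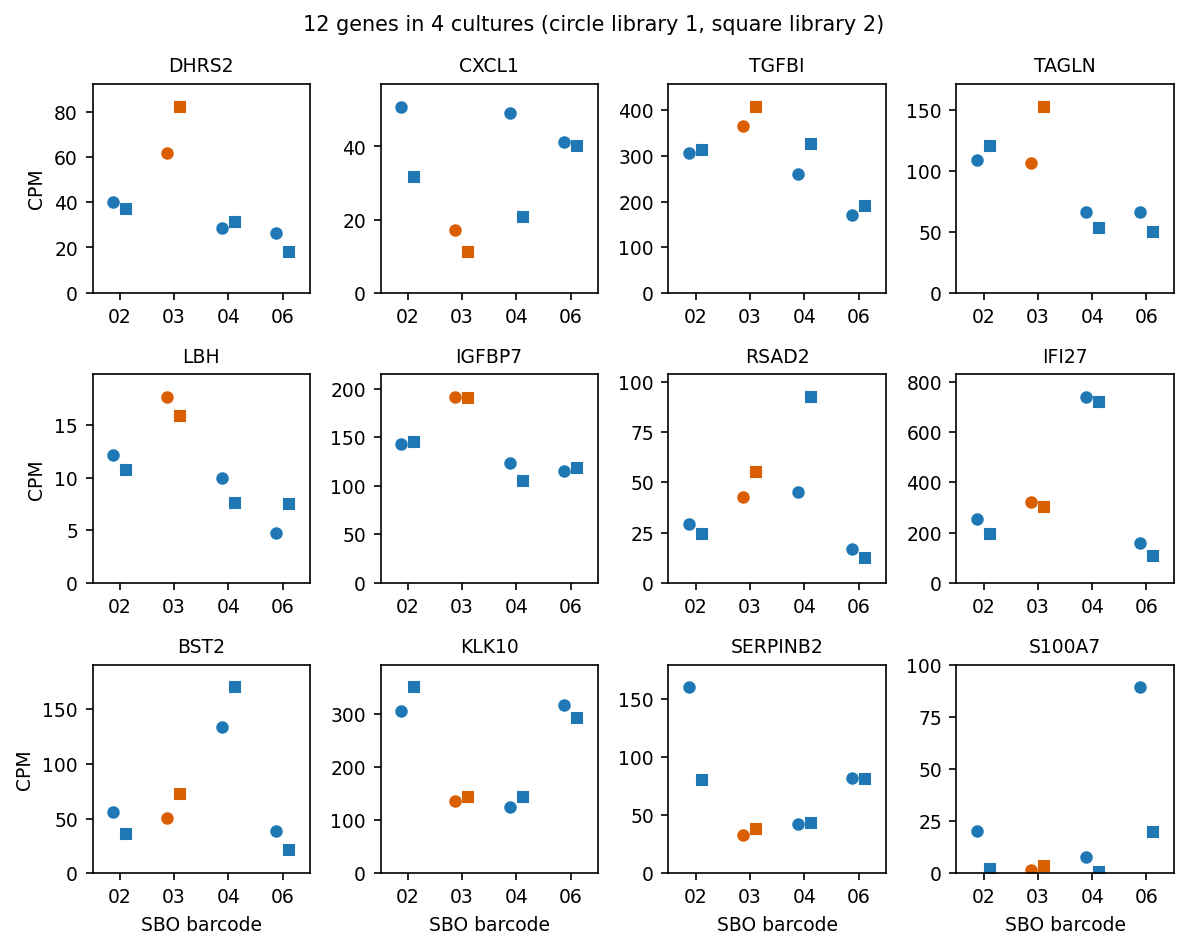
CPM (y axes, from 0) of 12 genes in SBO02, SBO03, SBO04 and SBO06 (x axes), with circles for library 1, squares for library 2 and SBO03 in orange. DHRS2 at 61.7 and 82.4 CPM is the only gene here with both SBO03 points at least 1.5 times above all others, and KLK10 pairs SBO03 with SBO04 below SBO02 and SBO06.

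By gene group, SBO03 was closest to SBO02 in the medians of TGF-β targets, partial EMT and basement membrane genes, and closest to SBO04 in that of squamous genes. For interferon-stimulated genes it was closest to SBO02 in library 1 and to SBO04 in library 2. Over all 8623 genes the median log2 difference was -0.01 from SBO02, -0.01 from SBO04 and 0.02 from SBO06.

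**Figure D4:**
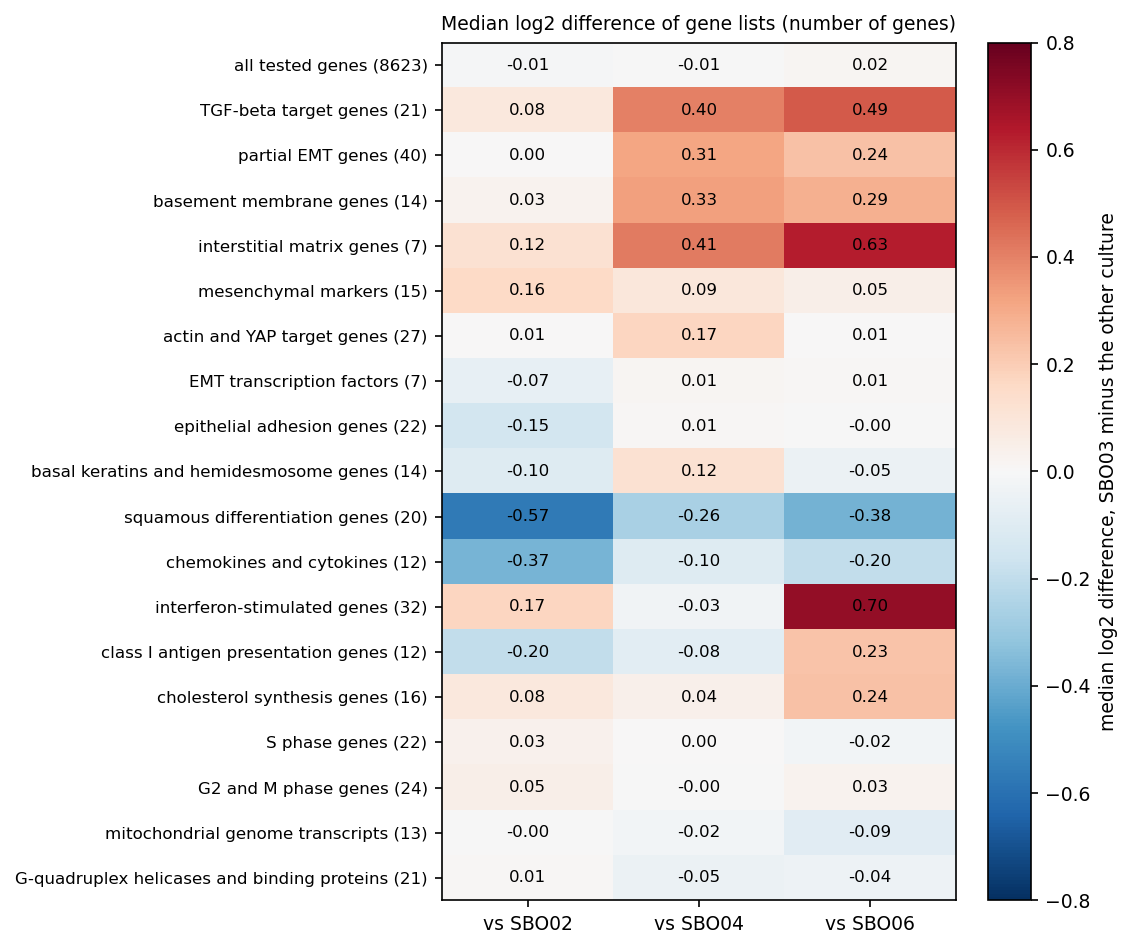
Median log2 difference of SBO03 from each of 3 cultures (columns) for 19 sets of genes (rows, with the number of genes compared), red where SBO03 was higher. TGF-β target genes are at 0.08, 0.40 and 0.49, interferon-stimulated genes at 0.17, -0.03 and 0.70, and squamous differentiation genes at -0.57, -0.26 and -0.38.

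Counts of list members above or below a culture in both libraries, with no fold, are read against all 8623 genes. Of these, 27.4% lay above and 32.5% below SBO02, 25.7% above and 29.0% below SBO04, and 38.5% above and 30% below SBO06. Called members are read against the shares of all genes called. These were 0.058% higher and 0.255% lower than SBO02, 0.0928 and 0.0812% for SBO04, and 0.684 and 0.186% for SBO06. With shares this small, a list without a call says little about its members.

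Of the TGF-β ligands and their modulators, 9 of 18 genes were compared and 1 was called. The call was lower than in SBO06, against 0.186% of all genes. FST, the secreted activin antagonist follistatin, was at 13.3 and 13.3 CPM in SBO03 against 38.9 and 39.4 CPM in SBO06, 23.2 and 18.7 CPM in SBO02 and 9.95 and 11.9 CPM in SBO04. INHBA, the activin subunit, was at 46.5 and 47.6 CPM in SBO03 and 32.8 and 33.7 CPM in SBO06, short of the fold. The ligand gene TGFB1 and the receptor gene TGFBR2 were not called: TGFBR2 was at 60.3 and 60.3 CPM in SBO03 and between 47.8 and 72.7 CPM in the others. None of the 9 was called against SBO02 or SBO04.

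Of the SMADs and feedback genes, 12 of 16 were compared and 2 were called. Both were higher than in SBO06, against 0.684% of all genes. PMEPA1, a membrane protein that sequesters SMADs, was at 193 and 189 CPM in SBO03 against 101 and 111 CPM in SBO06, with 180 and 172 CPM in SBO02 and 139 and 144 CPM in SBO04. SKIL, a SMAD co-repressor, was at 44.7 and 48.0233 CPM against 26.6 and 26.6 CPM. SMAD2, SMAD3 and SMAD4 were not called against any culture.

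Of 23 TGF-β target genes 21 were compared. Against SBO06, 6 were called higher, against 0.684% of all genes, and none lower. Above SBO06 in both libraries lay 15, against 38.5% of all genes. Against SBO04, 1 was called higher, against 0.0928% of all genes, and 16 were above in both libraries, against 25.7%. Against SBO02, 1 was called lower, against 0.255% of all genes, and 10 were above, against 27.4%. The medians were 0.49, 0.40 and 0.08, and the last turned to as low as -0.07 in 1 of 12 alternative processings. By the same comparison of both libraries with all 3 cultures, 6 of the 21 lay above and none below, against 6.54 and 7.12% of all genes.

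The single target genes show the order of cultures. TGFBI, a matrix protein that binds collagen and integrins, was at 365 and 408 CPM in SBO03, 306 and 313 CPM in SBO02, 261 and 327 CPM in SBO04 and 171 and 190 CPM in SBO06. CDKN2B, the cell cycle inhibitor p15, was at 132 and 127 CPM in SBO03 and 50.5 and 53.6 CPM in SBO06. MMP2, a gelatinase, was at 18.5 and 19.0 CPM against 9.19 and 9.52 CPM. In each of these 3 genes SBO06 was the lowest and SBO03 the highest of the 4 cultures. TAGLN, the actin-binding protein transgelin, separated a different pair: it was at 107 and 153 CPM in SBO03 and 109 and 120 CPM in SBO02, against 66.0 and 53.5 CPM in SBO04 and 66.0 and 49.998 CPM in SBO06. CDKN1A, the inhibitor p21, was the gene lower than in SBO02, at 239 and 227 CPM against 376 and 441 CPM. NEDD9, a scaffold of focal adhesions, and the cytokine IL11 were the other targets higher than in SBO06.

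**Figure D5:**
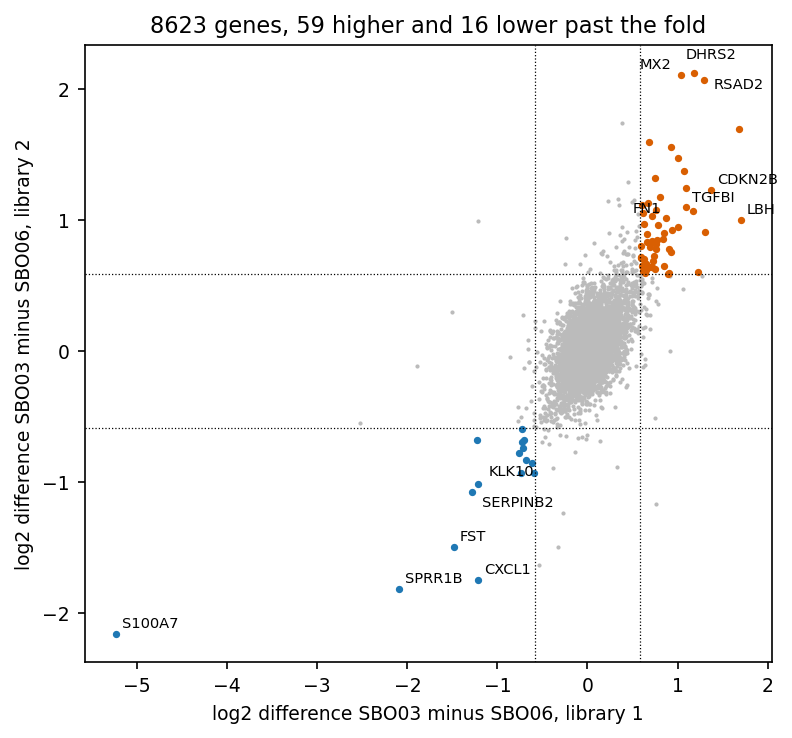
Log2 difference of SBO03 from SBO06 in library 1 (x axis) and library 2 (y axis) for 8623 genes, with dotted lines at 1.5 times in each direction, the 59 genes higher in orange and the 16 lower in blue. FN1, TGFBI and CDKN2B lie in the upper right with DHRS2 and the interferon-stimulated genes RSAD2 and MX2, and S100A7 lies farthest to the lower left.

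Of 15 basement membrane genes 14 were compared, with medians of 0.03, 0.33 and 0.29 against SBO02, SBO04 and SBO06. Of these, 1 was called, higher than in SBO06, against 0.684% of all genes. COL4A1, a chain of collagen IV, was at 45.7 and 58.4 CPM in SBO03 against 26.6 and 27.2 CPM in SBO06, and at 46.3 and 48.3 CPM in SBO02. Of 24 interstitial matrix genes 7 were compared. Higher than in SBO06 were 2, against 0.684% of all genes, and higher than in SBO04 was 1, against 0.0928%. The latter was COL1A1 (below), at 23.8 and 31.2 CPM against 11.1 and 19.0 CPM in SBO04. SPARC, a collagen-binding glycoprotein, was at 727 and 731 CPM in SBO03, 546 and 510 CPM in SBO02, 521 and 575 CPM in SBO04 and 362 and 379 CPM in SBO06, a log2 difference of 0.98 from SBO06. MFAP2, a protein of microfibrils, was at 39.0 and 40.3 CPM against 22.2 and 20.2 CPM in SBO06. SPARC was the highest of the 4 cultures in SBO03 in both libraries.

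Of the integrins and other fibronectin partners, 14 of 15 were compared. Called higher than in SBO06 were 2, FN1 itself and ITGB6, against 0.684% of all genes. ITGB6, the epithelial integrin subunit that activates latent TGF-β, was at 61.0 and 59.0 CPM in SBO03, 61.7 and 68.8 CPM in SBO02, 27.3 and 43.0 CPM in SBO04 and 32.3 and 38.8 CPM in SBO06. ITGA4, chosen from its values because it had one of the larger differences from SBO06, encodes the α4 integrin subunit and was at 19.9996 and 24.1 CPM against 8.85 and 9.59 CPM. The fibronectin receptor subunits ITGA5 and ITGB1 were not called.

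Of 44 partial EMT genes 40 were compared. Medians were 0.00, 0.31 and 0.24, and 34 of the 40 lay above SBO04 in both libraries, with 1 below, against 25.7 and 29.0% of all genes. None was called against SBO02 or SBO04, and 4 were higher than in SBO06, against 0.684% of all genes. These were ITGB6, TGFBI, MMP2 and SERPINE2, a protease inhibitor at 171 and 151 CPM against 91.0 and 99.5 CPM. Most of the shift from SBO04 was thus in many genes by less than the fold. Of 16 mesenchymal markers 15 were compared. VIM, the intermediate filament vimentin, was at 213 and 299 CPM in SBO03 and between 218 and 332 CPM in the others, with no call. IGFBP7, a secreted binding protein, was at 192 and 191 CPM in SBO03 against 105 to 145 CPM in the other 3, past the fold from SBO04 and SBO06. CDH2, N-cadherin, was at 14.1 and 14.4 CPM against 8.25 to 12.8 CPM and was not called. None of the 7 EMT transcription factors compared, SNAI2, TWIST1 and TWIST2 among them, was called against any culture, and ZEB1 and ZEB2 were under 10 CPM.

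Cells rich in a set of matrix genes, called matrix-rich here, were present in SBO03. Cells with at least 3 UMIs of COL1A1, COL1A2, COL3A1, POSTN and BGN among 10000 numbered 13 and 15 in SBO03, 3.09 and 4.63%, against 3 and 3 in SBO02 (1.41 and 1.88%), 1 and 5 in SBO04 (0.758 and 4.31%) and 15 and 13 in SBO06 (2.84 and 3.09%). SBO03, SBO06 and library 2 of SBO04 thus had similar shares. Such cells made up 46.4 and 49.0% of SBO05. The 5 genes were listed as leading in SBO05 with these data known, so its high share was built into the choice. The sums without matrix-rich cells also left out all cells under 10000 UMIs, among them 71 and 60 in SBO03 and 34 and 11 in SBO04. The effects of these exclusions were not separated. In such sums the log2 difference of COL1A1 went from 0.86 to 0.18 against SBO04 and from 0.63 to 0.65 against SBO06. COL1A1 is itself among the genes that choose the matrix-rich cells. Its fall against SBO04 was thus partly built in and cannot decide whether the call rests on them. FN1 in the same sums differed by 0.09, 0.44 and 0.96 from SBO02, SBO04 and SBO06, as large as in all cells. TGFBI there differed by 1.15 from SBO06, and TAGLN by 0.96 from SBO04 and -0.03 from SBO02 (0.16 in all cells). DHRS2 differed by 0.92, 1.299 and 1.71.

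Interferon-stimulated genes, which encode antiviral and signalling proteins and are switched on by interferons, split the comparators. All 32 genes of the list were compared. Against SBO06 all 32 lay above in both libraries, against 38.5% of all genes, and 8 were called higher, against 0.684%. The median was 0.70, from 0.44 in library 1 and 0.93 in library 2. Against SBO02 none was called, and 16 were above and 3 below in both libraries, against 27.4 and 32.5% of all genes. The median of 0.17 rested on library 2, where it was 0.37, with 0.01 in library 1. Against SBO04 none was called higher and 2 lower, against 0.0812% of all genes. The median of -0.03 changed sign in 3 of 12 alternative processings. Of the 8 genes lower in SBO06 than in all 3 other cultures, RSAD2, MX2, CMPK2 and IFI27 are in this list.

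RSAD2, the antiviral enzyme viperin, was at 42.9 and 55.3 CPM in SBO03, 29.4 and 24.4 CPM in SBO02, 45.2 and 92.5 CPM in SBO04 and 17.0 and 12.4 CPM in SBO06. MX1, an antiviral GTPase, was at 502 and 600 CPM in SBO03 against 298 and 240 CPM in SBO06. IFIT1, which binds viral RNA, was at 306 and 339 CPM against 175 and 149 CPM. In SBO03 all 3 were above both SBO02 and SBO06 in both libraries. IFI27 and BST2 separated SBO03 from SBO04. IFI27, a mitochondrial membrane protein, was at 323 and 300 CPM in SBO03, 740 and 720 CPM in SBO04, 254 and 196 CPM in SBO02 and 160 and 107 CPM in SBO06. BST2, the virus-tethering protein tetherin, was at 50.6 and 72.2 CPM in SBO03 against 134 and 171 CPM in SBO04. IFI27 was found in 62.5 and 54.9% of thinned SBO03 cells, 87.9 and 72.4% of SBO04 and 38.1 and 35.9% of SBO06. SBO03 thus lay between SBO06 and SBO04 in IFI27.

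Promoters of this group share the letters of the interferon-stimulated response element, and 4 of the 8 genes higher than in SBO06 are shown, each with 10 bases on both sides of 1 match. The match, in capitals, is TTTC, any 2 bases and TTTC, searched on both strands. The positions are of GRCh38.p14.
IFI27, chr14:94110618-94110647: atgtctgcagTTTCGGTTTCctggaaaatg
IFI44L, chr1:78620274-78620303: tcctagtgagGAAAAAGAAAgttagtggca
IFIT1, chr10:89392497-89392526: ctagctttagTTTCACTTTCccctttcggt
IFI6, chr1:27672329-27672358: ggagagagggGAAAATGAAActctgcagag
IFI6 lies on the minus strand and the other 3 on the plus strand, and all 4 are read in the direction of the gene. The matches begin 108 bases before the start of IFI27, 164 before that of IFI44L, 116 before that of IFIT1 and 156 before that of IFI6. Of the 24 listed genes with a window of 300 bases, 17 held a match, 70.8%, against 3.65% of all 27305 windows. The windows of RSAD2 and CMPK2 did not hold these letters.

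Class I antigen presentation genes, which display peptides to T cells, were shifted in the same direction as the interferon genes against SBO06. Against SBO02 they were shifted down, while the interferon median was 0.01 in library 1 and 0.37 in library 2. Of 13, 12 were compared and none was called. Of these, 11 lay above SBO06 in both libraries, against 38.5% of all genes, with a median of 0.23. Against SBO02, 10 lay below, against 32.5% of all genes, with a median of -0.20. Against SBO04, 7 lay below and none above, against 29.0 and 25.7% of all genes, with a median of -0.08. HLA-B was at 624 and 712 CPM in SBO03, 476 and 443 CPM in SBO06, 759 and 760 CPM in SBO02 and 900 and 821 CPM in SBO04.

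The list of squamous differentiation genes holds genes that build and shed the outer layers of stratified epithelium. It also holds others, such as C15orf48, MUC16 and SLPI. Its calls were in 1 direction. Of 30, 20 were compared, and none was called lower than all 3 cultures. Against SBO02, 6 were called lower, against 0.255% of all genes, and none higher. In both libraries 16 lay below, against 32.5% of all genes, and the median was -0.57. Against SBO06, 5 were called lower, against 0.186% of all genes, and 15 lay below, against 30%, with a median of -0.38. Against SBO04, 2 were called lower, against 0.0812% of all genes, and 9 lay below, against 29.0%. The median of -0.26 changed sign in 1 of 12 alternative processings. Below all 3 cultures in both libraries lay 6 of the 20, against 7.12% of all genes.

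KLK10, a secreted kallikrein protease, was at 136 and 144 CPM in SBO03 and 125 and 144 CPM in SBO04, against 306 and 351 CPM in SBO02 and 317 and 292 CPM in SBO06. SERPINB2, an inhibitor of plasminogen activation, was at 33.1 and 37.8 CPM in SBO03 and 42.4 and 42.7 CPM in SBO04, against 160 and 80.0 CPM in SBO02 and 82.2 and 80.9 CPM in SBO06. KLK10 was found in 56.1 and 48.1% of thinned SBO03 cells and 66.2 and 69.4% of SBO02 cells. In both genes the 4 cultures formed a lower pair, SBO03 with SBO04, and a higher pair. KLK7, a protease of the same family, was at 124 and 123 CPM in SBO03 against 210 and 239 CPM in SBO02. C15orf48, which encodes a mitochondrial complex subunit, was at 559 and 402 CPM against 855 and 756 CPM in SBO02. S100A9, a calcium-binding alarmin, was at 67.0 and 66.1 CPM against 158 and 106 CPM in SBO06.

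Some squamous genes were concentrated in a few cells. S100A7, psoriasin, was at 1.40 and 3.59 CPM in SBO03 against 89.4 and 19.5 CPM in SBO06, where 5 cells held 97.9 and 91.7% of its UMIs. Without the richest 2% of cells S100A7 was at most 1.28 CPM in all 8 sums. PI3, the protease inhibitor elafin, was lower than in SBO04, where 5 cells held 88.3 and 91.1% of it. SPRR1B, a precursor of the cornified envelope, was at 6.29 and 2.17 CPM in SBO03 against 30.1 and 10.2 CPM in SBO06, where 5 cells held 73.3 and 43.1% of its UMIs. Without the richest 2% of cells SPRR1B was at 2.97 and 0.849 CPM in SBO03 against 5.11 and 4.44 CPM in SBO06, still past the fold. Against SBO02, then at 3.47 and 7.13 CPM, it was no longer past the fold in library 1.

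Of 23 chemokine and cytokine genes 12 were compared. CXCL1 was called lower against each culture, as above. CXCL10, a chemokine for T cells, was lower than in SBO04 by sum, at 6.46 and 8.77 CPM against 20.8 and 24.0 CPM. In SBO04, 5 cells held 100% of it in each library. Without the richest 2% of cells its log2 difference turned to 0.26. It was then at 0.961 and 0.189 CPM in SBO03 and 0.284 and 0.264 CPM in SBO04. At values this low, with the libraries in opposite order, the sign says little. CSF2, the growth factor GM-CSF, was higher than in SBO04 and SBO06, at 19.1 and 11.04 CPM against 11.9 and 5.01 CPM in SBO04. SBO02 held 15.3 and 28.3 CPM, above SBO03 in library 2. In SBO03, 5 cells held 59.4 and 76.9% of CSF2. Without the richest 2% of cells SBO03 kept 4.63 and 1.51 CPM against 2.59 and 2.89 CPM in SBO06, below it in library 2. The CSF2 difference from SBO04 turned to -0.31 when singlets with another barcode on top were kept. Few cells thus weigh heavily on the sums of CXCL10 and CSF2. CXCL1 stayed past the fold below SBO02 and SBO06 without its richest 2% of cells. Medians for the 12 genes were -0.37, -0.10 and -0.20.

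Of 22 epithelial adhesion genes all were compared, and 1 was called, lower than in SBO02, against 0.255% of all genes. CLDN1, a tight junction claudin, was at 17.3 and 16.9 CPM in SBO03 against 31.8 and 36.2 CPM in SBO02. Against SBO02, 15 of the 22 lay below in both libraries, against 32.5% of all genes, with a median of -0.15, while medians against SBO04 and SBO06 were 0.01 and -0.00. CDH1, E-cadherin, was at 89.8 and 101 CPM in SBO03 and 79.4 to 101 CPM in the others. Of 15 basal keratin and hemidesmosome genes 14 were compared, with medians of -0.10, 0.12 and -0.05 against SBO02, SBO04 and SBO06. Lower than in SBO02 was 1, against 0.255% of all genes, and lower than in SBO06 was 1, against 0.186%. S100A2, a calcium-binding protein of basal cells, was at 1361 and 1221 CPM in SBO03 against 2079 and 2209 CPM in SBO06, and KRT15 was at 85.7 and 88.4 CPM against 132 and 162 CPM in SBO02.

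Of the 59 genes higher than in SBO06, 34 were in none of the lists, as were all 5 higher than in SBO02 and 12 of the 22 lower. The non-list gene AC007952.4 had the largest mean difference among genes higher than in SBO02 and than in SBO06. It was at 22.3 and 22.2 CPM in SBO03, 4.93 and 2.85 CPM in SBO02, 13.1 and 21.9 CPM in SBO04 and 6.26 and 6.14 CPM in SBO06. In SBO03, 5 cells held 37.3 and 54.5% of its UMIs. Without the richest 2% of cells SBO03 kept 10.4 and 8.30 CPM. SBO02 then held 2.74 and 2.04 CPM, SBO04 7.68 and 7.12 CPM, and SBO06 3.06 and 3.17 CPM. LBH, a transcriptional regulator, was at 17.7 and 15.9 CPM in SBO03, 9.95 and 7.64 CPM in SBO04 and 4.77 and 7.47 CPM in SBO06, and CYP1A1, a target of the aryl hydrocarbon receptor, at 18.3 and 18.6 CPM against 9.67 and 9.23 CPM in SBO04. HMOX1, heme oxygenase, was at 44.6 and 42.6 CPM against 26.5 and 19.5 CPM in SBO02 and 27.8 and 22.5 CPM in SBO06. These genes and ITGA4 were named after their values were seen.

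Groups with medians within 0.05 of 0 against each culture and no call included the S phase genes (22 compared), the G2 and M phase genes (24), the nuclear oxidative phosphorylation genes (24), the epithelial regulators (8) and the G-quadruplex helicases and binding proteins (21). Of 16 cholesterol synthesis genes 15 lay above SBO06 in both libraries, against 38.5% of all genes, with a median of 0.24 and no call. Mitochondrial genome transcripts had medians of -0.00, -0.02 and -0.09.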

How the data were processed

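The authors deposited 1 raw count matrix of UMIs per mRNA library, holding 36601 genes and 12 barcodes; the unit is counts. Cell Ranger 6.0.2 is named in the file headers, and bcl2fastq 2.20.0.422, Seurat 4.1.0 and build hg38 in the submitters' processing notes; the gene annotation release is not given in the sources used here. Libraries 1 and 2 held SBO01 to SBO06. In them 7600 and 5118 of 8792 and 6125 cell barcodes passed the cell filter. Barcode UMIs were transformed to centred log ratios and assigned by HTODemux of Seurat 5.3.0 at a positive quantile of 0.99. Cells with several barcodes (2305 and 1205) or none (1621 and 1136) were left out, and pairs of cells from 1 culture stay in, since no other doublet caller was run.

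Sums per barcode and library were scaled to CPM, with TMM factors of edgeR 4.0.16 as an alternative. No p-value is given because there is 1 culture on each side; the spread between libraries is technical. A 5′ kit counts the starts of transcripts, so isoforms sharing a start are merged. Genes to name were the called genes, FN1, and up to 4 members of each list by mean difference, apart from those stated. The members and lists were chosen with earlier results of these data known. Lists hold genes that other lists share. Thinning, intervals and motif searches used Python 3.11.15. The calling step was tested on simulated data. Alternatives changed the assignment, cell filter, thinning, scaling, minimum CPM, pseudocount, fold, library and cultures; leaving out the richest 2% of cells, and all alternatives for single cultures, were added after seeing the data. Promoter windows are from RefSeq, GRCh38.p14.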

Additional observations from a re-analysis of the deposited data

Results flagged for a closer look

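In library 3, which holds no SBO03 cells, 0.00175% of the barcode UMIs came from barcodes of the other pool, which was far from the share in the other 3 libraries. In the same library a barcode of the other pool was the highest in at most 0.0189% of 5304 kept cells, against 0 in each of the other 3. With 0 in those libraries, any value above 0 would have been flagged, so this flag carries no information. Whether the same cells gave rise to the first flag was not tested. For a measure without such ties, chance flags about 1 in 20 such groups.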

How the results depend on the processing

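No paired analysis was possible because no result comes from a test; the numbers shared by mRNA and SBO libraries name channels. Genes higher and lower than all 3 cultures (1 and 1) became 0 and 0 at a quantile of 0.95 or a fold of 2, 8 and 4 at a fold midway between 1 and 1.5, and 4 and 7 without SBO04. The higher count was also 0 with the top barcode or a pseudocount of 5 CPM, 2 with singlets regardless of the highest barcode or with at least 2000 genes and at most 10% mitochondrial UMIs, 3 without a minimum CPM and 6 without SBO02; the lower count was 0 without the richest 2% of cells. Leaving out 1 library gave 2 to 6 higher and 2 to 5 lower. The FN1 difference of 0.48 became 0.69 without SBO02 and 0.25 without SBO06, and ranged from 0.37 to 0.59 without 1 library. The share of cells with FN1 (99.6%) was 99.1 to 100% without 1 library.

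Against SBO02 (5 higher, 22 lower), 3 were higher with the top barcode, at a quantile of 0.95 or at 20 CPM, 8 with singlets regardless of the highest barcode, 16 with thinning and 2 with a pseudocount of 5 CPM; 14 were lower at 20 CPM. Without a minimum there were 61 higher and 88 lower, at the midway fold 52 and 144, at a fold of 2 1 and 5, and without 1 library 27 to 42 and 70 to 75. Against SBO04 (8 and 7), the top barcode gave 5 and 11, thinning 28 and 23, 20 CPM 4 and 4, no minimum 105 and 62, the midway fold 87 and 69, a fold of 2 1 and 4, 1 library left out 58 to 65 and 40 to 62, and leaving out matrix-rich cells 5 higher. Against SBO06 (59 and 16), 20 CPM or a pseudocount of 5 CPM gave 39 higher, no minimum 150 and 37, the midway fold 240 and 85, a fold of 2 10 and 6, and 1 library left out 96 to 127 and 34 to 37. The other 89 values of these results stayed within their spread or 1.5 times. Similar counts can hold other genes. Of the 5 genes higher than in SBO02, 1 was still called with the top barcode and 1 at a quantile of 0.95. Of the 8 higher than in SBO04, 2 were still called with the top barcode. Without the richest 2% of cells, 4 of the 5 higher and 11 of the 22 lower than in SBO02 stayed called. Against SBO04 3 of 8 and 3 of 7 stayed called, and against SBO06 48 of 59 and 11 of 16. The differences from SBO04 that turned were CSF2, to -0.31 with singlets regardless of the highest barcode, and CXCL10. The latter turned to 0.26 without the richest 2% of cells, on values under 1 CPM in both cultures. The cause was not tested. Depth limits SBO04 most, with 293 cells and 1.96% of genes past the fold between its own libraries.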
